A study of Mus musculus with 30 samples.

Results

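Whole retinas of mice homozygous for the *Crx* R90W knock-in allele (*R90W/W*) were compared by RNA-seq with wild-type (WT) retinas at postnatal day 10 (P10). The 3 *R90W/W* and 3 WT libraries were taken by the genotype and age in their labels, 6 of the 30 libraries of the series. Of 12573 genes with deposited values, 12077 were tested, those at 5 CPM or more in all 3 libraries of either genotype. CPM, the unit of the deposited values, scale a gene's reads to 1e6 reads counted on genes in that library, so they are shares of a library and not amounts per cell. A log2 ratio below is the difference of mean log2(CPM + 0.1), *R90W/W* minus WT, with its standard error (SE) from limma. A gene passed the test where its false discovery rate (FDR) did not exceed 0.05, and it was called if it also differed by at least 2-fold.

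All animals were C57BL6/J. *R90W/W* mice carry a substitution in the DNA-binding homeodomain on both alleles of *Crx*, and *R90W/+* mice carry it on a single allele. *E168d2/d2* mice carry on both alleles a frameshift that truncates CRX and leaves the homeodomain in place. The study's methods describe each library as a pool of 4 retinas from male and female animals, and these pools are the replicates. The sex-linked RNA of *E168d2/d2* replicates B and C did not match that, as given below. The *R90W/W* libraries held an estimated 18.8 M to 26.2 M reads on genes (M, 1e6 reads), WT 13.9 M to 17.1 M, *R90W/+* 16.6 M to 20.3 M and *E168d2/d2* 17.4 M to 21.97 M. RNA of whole retina mixes all its cell types, and here fewer cells of a type cannot be told apart from less RNA per cell.

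CRX is a homeodomain transcription factor of developing and mature rods and cones. It binds DNA near photoreceptor genes and acts there with partners such as the rod factors NRL and NR2E3. The genes it is known to regulate include those of phototransduction, the cascade in which an opsin activates the G protein transducin, transducin activates a phosphodiesterase, and the fall of cGMP closes a cation channel. P10 is before the eyes of a mouse open, while outer segments are still growing.

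CPM per gene hold no allele information, so the genotype could not be checked from *Crx* itself. The *Crx* level was 1539, 1601 and 1481 CPM in WT and 1886, 1902 and 1837 CPM in *R90W/W*. All *R90W/W* libraries were above all WT libraries, and the log2 ratio was 0.28 (SE 0.04, limma FDR 5.22e-06). The difference was under 2-fold and was not called.

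In *R90W/W*, 190 genes were called lower and 70 higher. These 260 genes are 2.15% of those tested, with 1.57% lower and 0.58% higher. Together the fallen genes held 22450 to 22713 CPM per WT library and 7323 to 7534 CPM per *R90W/W* library. The risen genes went from 2583 to 2618 CPM in WT to 7649 to 7856 CPM in *R90W/W*. At least 4-fold changes were seen in 41 fallen and 10 risen genes, and at least 8-fold changes in 10 fallen genes and in *Col16a1* among the risen. The comparison was also precise below the 2-fold limit, with a median SE of 0.06 on the log2 scale. By the FDR alone 6671 genes passed (55.2%), 2696 of them lower (22.3%) and 3975 higher (32.9%), and the libraries of the genotypes did not overlap for 7359 genes (60.9%). Most of these differences were small, since the median absolute log2 ratio of all tested genes was 0.16 and 95% of genes lay under 0.70. Genes short of the 2-fold limit are therefore given below with their size. Counts by the FDR alone in the gene lists below are to be read beside these shares of 22.3% lower and 32.9% higher. Counts of called genes in the lists are to be read beside the 1.57% called lower and 0.58% called higher. Exons of 69 of the 260 called genes overlap another annotated gene, among them *Opn1sw*, *Abca4*, *Rpgrip1*, *Cln3*, *Bbs12*, *Mpp4*, *Ckmt1*, *Pfkfb2*, *Txnip*, *Irf5* and *Egr1*, and whether reads were counted by strand is not given in the sources used here.

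**Figure D1:**
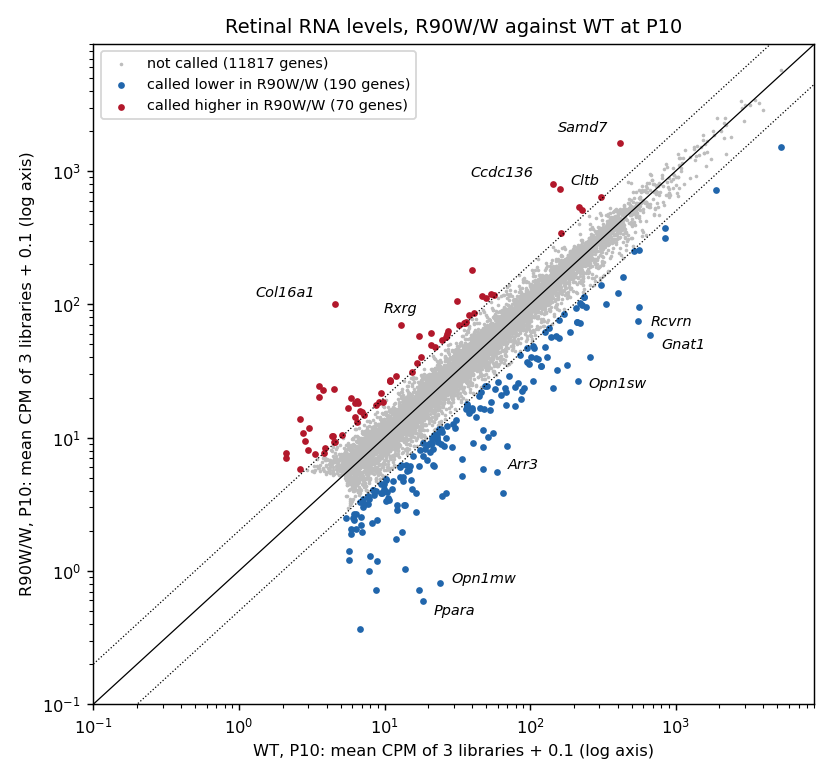
Each dot is 1 tested gene, with the mean CPM + 0.1 of the 3 WT libraries on the x axis and of the 3 *R90W/W* libraries on the y axis, both log axes; the solid line marks equal levels and the dotted lines a 2-fold difference. The 190 genes called lower span a wide range of WT levels, with *Ppara* and *Opn1mw*, near 20 CPM in WT, farthest from the line of equal levels, and *Col16a1* stands apart among the 70 genes called higher.

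Rod phototransduction genes fell in *R90W/W*, but by very unequal amounts, even between subunits of the same protein complex. Of 21 genes of the cascade, 9 were called lower and none higher, with a list median log2 ratio of -0.76 beside 0.05 for all tested genes. By the FDR alone 19 were lower and 1 was higher.

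Transducin passes the signal from the light-activated opsin to the phosphodiesterase. Its rod alpha subunit, *Gnat1*, was at 716, 666 and 626 CPM in WT and at 55.1, 63.9 and 57.4 CPM in *R90W/W*. This was the largest fall in the rod cascade, 11.4-fold (log2 ratio -3.51, SE 0.05, limma FDR 2.01e-18). The beta subunit *Gnb1*, which other neurons also use, was at 2943 ± 4.4 CPM in WT and 2393 ± 85.9 CPM in *R90W/W* (SD, n = 3), a log2 ratio of -0.30. The rod gamma subunit *Gngt1*, named after its value was seen, had a log2 ratio of -0.51. Neither was called, although both passed the FDR.

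The rod phosphodiesterase showed the same unevenness. Its catalytic subunit *Pde6a* was at 559, 579 and 534 CPM in WT and at 98.9, 94.9 and 92 CPM in *R90W/W*, with no overlap and a 5.85-fold fall (log2 ratio -2.55, SE 0.04, limma FDR 2.01e-18). The other catalytic subunit, *Pde6b*, went from 1389 ± 15.1 to 913 ± 31.1 CPM, a log2 ratio of -0.61. *Pde6g*, the inhibitory subunit, lay between them at 846 ± 6.4 and 372 ± 6.3 CPM (log2 ratio -1.18). Both subunits of the cGMP-gated channel were lower by under 2-fold, *Cnga1* with a log2 ratio of -0.76 and *Cngb1* with -0.63.

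Genes that handle calcium and restore cGMP after light made a further group of falls. Recoverin, a calcium sensor of photoreceptors, is encoded by *Rcvrn*, at 550, 547 and 565 CPM in WT and 74.0, 82.4 and 70.2 CPM in *R90W/W*. *Guca1b*, a calcium-sensing activator of guanylate cyclase, was at 36.2, 35.0 and 30.8 CPM in WT and at 4.57, 5.26 and 5.34 CPM in *R90W/W*. Both groups of libraries were well apart for either gene, with log2 ratios of -2.88 (SE 0.05) and -2.73 (SE 0.09). The related activator *Guca1a* (log2 ratio -1.37), the cyclase *Gucy2f* (-1.38) and the exchanger *Slc24a1*, which removes calcium from the rod outer segment (-1.35), were also called lower. The rod arrestin *Sag* was at 2392 ± 36.9 CPM in WT and 1811 ± 46.2 CPM in *R90W/W* (log2 ratio -0.40). Phosducin, a binder of transducin subunits encoded by *Pdc*, was at 1582 ± 76.0 and 1599 ± 35.5 CPM, and its libraries overlapped (limma FDR 0.735). *Rgs9*, the GTPase activator that shuts transducin off, was the single member higher by the FDR (log2 ratio 0.23, named after its value was seen).

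**Figure D2:**
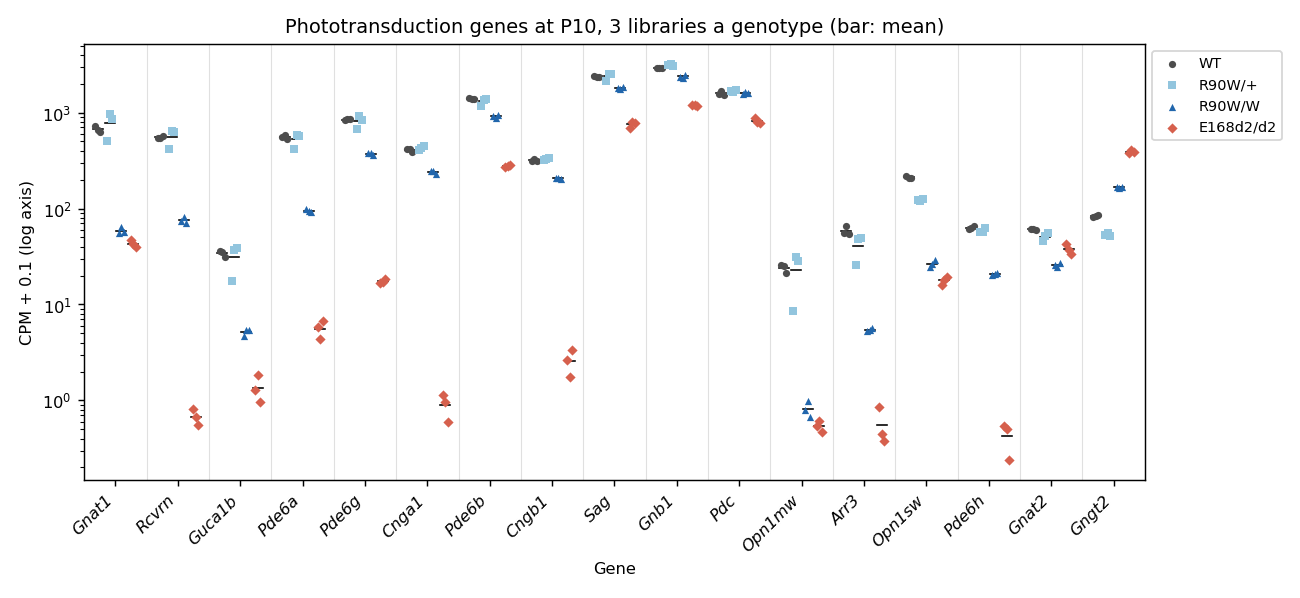
CPM + 0.1 on a log axis for 17 phototransduction genes, rod genes from *Gnat1* to *Pdc* and cone genes from *Opn1mw* to *Gngt2*, in the 3 libraries of each of 4 genotypes at P10 (bars are means). *R90W/W* lies close to *E168d2/d2* for *Gnat1*, *Opn1mw* and *Opn1sw*, and far above it for *Rcvrn*, *Cnga1* and *Cngb1*.

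Cone phototransduction split into genes that fell and genes that were higher. Of 11 members 6 were called lower and none higher (list median -1.10). By the FDR alone 7 were lower (63.6%) and 4 were higher (36.4%), beside 22.3% and 32.9% of all tested genes. The middle-wavelength opsin *Opn1mw* was at 25.9, 25 and 21.1 CPM in WT and at 0.691, 0.877 and 0.572 CPM in *R90W/W*. Its log2 ratio of -4.90 (SE 0.15, limma FDR 1.07e-14) was exceeded only by that of *Ppara* among all tested genes. The short-wavelength opsin *Opn1sw* was at 220, 209 and 206 CPM in WT and 24.3, 26.3 and 29.2 CPM in *R90W/W* (log2 ratio -2.99, SE 0.06). Cone arrestin, *Arr3*, was at 55.9, 66.1 and 54.7 CPM in WT and 5.21, 5.36 and 5.57 CPM in *R90W/W* (log2 ratio -3.42, SE 0.08). No library of either genotype came near the other for these 3 genes.

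The cone phosphodiesterase subunits *Pde6h* (log2 ratio -1.60) and *Pde6c* (-1.10) and the cone transducin alpha subunit *Gnat2* (-1.22) fell less. On the other side stood the cone transducin gamma subunit *Gngt2*, at 82.4, 82.6 and 85.6 CPM in WT and 167.5, 163.6 and 167.9 CPM in *R90W/W*. It did not overlap and rose 1.99-fold (log2 ratio 0.99, SE 0.04, limma FDR 3.62e-13), just short of a call, and passed the limit without WT replicate C (1.01) or *R90W/W* replicate B (1.005). Within cone transducin the alpha subunit was therefore lower and the gamma subunit higher in the same libraries. The cone channel subunit *Cngb3* (0.78), the beta subunit *Gnb3* (0.31), which bipolar cells also use, and the exchanger *Slc24a2* (0.29) were higher as well.

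CRX and related homeodomain factors are known to bind the letters TAATCC and their variant TAATCT. Promoter sequences of 300 bases, from 250 bases before the annotated start of transcription to 50 bases after it, were taken from RefSeq (GRCm38.p6, a later build than that of the deposited values) for 8581 of the tested genes. Both strands were searched for either set of letters, as TAATCC or GGATTA and as TAATCT or AGATTA; matches on opposite strands may overlap. At least 1 match was held by 30 of 121 promoters of genes called lower (24.8%), by 7 of 52 of genes called higher (13.5%) and by 832 of the 8581 tested (9.7%). TAATCC alone was in 14% of the promoters of genes called lower, 9.62% of those called higher and 5.58% of all tested. A match describes the letters in this window and not a binding site. Shown are 3 cone genes among the largest falls and *Samd7* among the largest rises, 5′ to 3′ on the strand of the gene, with matches in capitals.
Arr3 (chrX:100605247-100605546, plus strand): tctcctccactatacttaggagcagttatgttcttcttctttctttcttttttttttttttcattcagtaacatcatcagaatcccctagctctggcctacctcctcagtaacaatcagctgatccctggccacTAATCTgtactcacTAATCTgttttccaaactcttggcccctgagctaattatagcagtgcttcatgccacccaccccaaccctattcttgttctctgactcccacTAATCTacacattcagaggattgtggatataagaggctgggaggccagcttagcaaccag
Opn1sw (chr6:29380464-29380763, minus strand): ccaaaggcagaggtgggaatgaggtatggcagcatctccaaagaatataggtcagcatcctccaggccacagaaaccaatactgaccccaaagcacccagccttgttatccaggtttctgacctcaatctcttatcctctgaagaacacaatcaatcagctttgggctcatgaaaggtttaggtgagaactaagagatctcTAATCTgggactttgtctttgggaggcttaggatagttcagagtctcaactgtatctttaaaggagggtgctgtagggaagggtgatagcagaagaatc
Opn1mw (chrX:74127216-74127515, plus strand): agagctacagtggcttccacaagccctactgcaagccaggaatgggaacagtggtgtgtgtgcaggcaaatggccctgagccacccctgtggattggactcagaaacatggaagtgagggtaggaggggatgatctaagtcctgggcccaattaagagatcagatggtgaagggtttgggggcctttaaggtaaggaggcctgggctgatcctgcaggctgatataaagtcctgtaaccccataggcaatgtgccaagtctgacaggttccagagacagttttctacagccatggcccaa
Samd7 (chr3:30746043-30746342, plus strand): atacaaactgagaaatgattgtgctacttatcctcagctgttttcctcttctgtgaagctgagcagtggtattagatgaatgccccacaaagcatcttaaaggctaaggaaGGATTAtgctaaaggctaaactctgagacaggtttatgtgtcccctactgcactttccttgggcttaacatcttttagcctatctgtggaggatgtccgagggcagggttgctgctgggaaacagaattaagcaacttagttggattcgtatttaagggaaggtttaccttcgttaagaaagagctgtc

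The *Arr3* window holds TAATCT 3 times, beginning 116, 102 and 10 bases before the start. *Opn1sw* holds it once, 49 bases before the start, and *Opn1mw*, the cone gene with the largest fall, holds neither set of letters here. The risen gene *Samd7* has GGATTA 139 bases before its start. The windows of the risen genes *Col16a1*, *Rxrg* and *Ccdc136* and of the fallen genes *Rdh8* and *Ppara* were also read and hold neither.

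Genes that build and maintain the outer segment, the stack of membranes that carries the opsins, were mostly lower by small amounts. Of 29 tested, 6 were called lower and none higher, and 25 were lower by the FDR (list median -0.60). The thioredoxin-like genes *Nxnl1* and *Nxnl2*, which encode the rod-derived cone viability factor and its relative, had log2 ratios of -2.37 (SE 0.05) and -1.69 (SE 0.05). *Nxnl1* was at 178, 187 and 172 CPM in WT and 32.5, 34.2 and 37.5 CPM in *R90W/W*, without overlap. *Fscn2*, a photoreceptor actin bundler, was at 16.5 ± 0.52 CPM in WT and 3.71 ± 0.27 CPM in *R90W/W* (log2 ratio -2.12). *Crb1*, of the complex at the outer limiting membrane, was the most variable of the called members, at 341, 335 and 324 CPM in WT and 99.2, 74.8 and 130 CPM in *R90W/W* (log2 ratio -1.75, SE 0.12). The potassium channel subunit *Kcnv2* and the lysosomal gene *Cln3* had log2 ratios of -1.44 and -1.54. The disc rim gene *Prph2*, by contrast, was at 1623 ± 16.9 CPM in WT and 1102 ± 2.5 CPM in *R90W/W* (log2 ratio -0.56), and its partner *Rom1* had a log2 ratio of -0.16. Among 39 cilium and Usher syndrome genes, 3 were called lower and none higher, and 5 were called lower with libraries scaled to the median log ratio. They were *Rpgrip1*, a scaffold of the connecting cilium (1898 ± 73.9 CPM in WT, 727 ± 33.0 CPM in *R90W/W*), the unconventional myosin *Myo7a* and the chaperonin-like *Bbs12*.

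The visual cycle returns retinal to the opsins, and its genes moved both ways. Of 16 genes tested, 3 were called lower and 1 higher (list median 0.16). By the FDR 6 were lower (37.5%) and 7 higher (43.8%), beside 22.3% and 32.9% of all tested genes. *Rdh8*, the outer segment retinol dehydrogenase, was at 67.3, 70.1 and 70.6 CPM in WT and 8.62, 9.44 and 7.78 CPM in *R90W/W* (log2 ratio -2.999, SE 0.07, limma FDR 3.1e-16). The flippase *Abca4* was at 857, 849 and 822 CPM in WT and 317, 309 and 314 CPM in *R90W/W* (log2 ratio -1.43, SE 0.03). *Rdh12*, the dehydrogenase of the inner segment, had a log2 ratio of -1.21. None of these genes overlapped between genotypes. *Rbp3*, whose product carries retinoids between cells, was lower by little (3730 ± 35.0 and 3266 ± 65.7 CPM, log2 ratio -0.19). The gene called higher was *Rgr*, an opsin of pigment epithelium and Müller glia, at 14.4, 6.76 and 7.65 CPM in WT and 18.3, 18.1 and 18.7 CPM in *R90W/W*. Its log2 ratio of 1.01 (SE 0.18) fell under the 2-fold limit without WT replicate B (0.80), WT replicate C (0.89) or *R90W/W* replicate C (0.997).

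Photoreceptor transcription factors moved in both directions, with 4 of 26 called lower, 2 called higher and a list median of -0.09. *Ppara*, a nuclear receptor of fatty acid metabolism, had the largest fall of all genes. It was at 19.3, 18.7 and 16.6 CPM in WT and 0.266, 0.619 and 0.610 CPM in *R90W/W* (log2 ratio -5.00, SE 0.21, limma FDR 1.12e-12). *Pax7*, a paired-box factor better known from muscle stem cells, was at 16.5, 17.3 and 17.6 CPM in WT and 0.638, 0.619 and 0.610 CPM in *R90W/W* (log2 ratio -4.58, SE 0.13). *Esrrb*, a rod orphan receptor, and *Ankrd33*, a photoreceptor corepressor, had log2 ratios of -2.19 (SE 0.06) and -1.70 (SE 0.05). The rod factors differed little beside these genes. *Nrl* was at 1240, 1270 and 1257 CPM in WT and 881, 829 and 933 CPM in *R90W/W* (log2 ratio -0.51, SE 0.04, limma FDR 7.77e-09), and *Nr2e3* had a log2 ratio of -0.19.

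*Samd7*, a Polycomb-associated regulator of rods, was called higher and was the most abundant of the 15 genes with the largest rises. It was at 403, 419 and 419 CPM in WT and 1582, 1641 and 1665 CPM in *R90W/W* (log2 ratio 1.98, SE 0.04, limma FDR 7.53e-18). *Rxrg*, a nuclear receptor of cones, was at 14, 11 and 13.8 CPM in WT and 70.3, 65.5 and 72.1 CPM in *R90W/W* (log2 ratio 2.42, SE 0.08). The retinal homeobox genes *Otx2* (0.71) and *Six6* (0.90), named after their values were seen, were higher without reaching the 2-fold limit.

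At the ribbon synapse, through which photoreceptors signal to bipolar cells, 4 of 30 genes were called lower and none higher. They were the scaffold *Mpp4* (402 ± 8.4 CPM in WT, 122 ± 5.2 CPM in *R90W/W*, log2 ratio -1.72), the adhesion protein *Elfn1* (-1.50), *Rabgef1* (-1.49) and the complexin *Cplx4* (-1.02). The log2 ratio of *Cplx4* was -0.98 without WT replicate B and -0.97 without *R90W/W* replicate C. *Cplx3*, the other ribbon complexin and named after its value was seen, was at 217 ± 12 CPM in WT and 403 ± 7.0 CPM in *R90W/W*, a log2 ratio of 0.89. These related genes lay on opposite sides of WT in the same libraries.

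In glycolysis and energy supply, 2 of 27 genes were called lower and 1 higher, around a list median of 0.02. The mitochondrial creatine kinase *Ckmt1* was at 153, 147 and 156 CPM in WT and 30.8, 31.6 and 33.6 CPM in *R90W/W* (log2 ratio -2.25, SE 0.05). The regulator of glycolysis *Pfkfb2* had a log2 ratio of -1.13. *Txnip*, a brake on glucose uptake, was at 30.8, 31.1 and 31.9 CPM in WT and 102, 95 and 118 CPM in *R90W/W* (log2 ratio 1.74, SE 0.06), well apart in all libraries. Among lipid genes 1 of 22 was called lower, the lipid droplet gene *Pnpla3* (-1.80), and 1 was called higher, the cholesterol exporter *Abca1* (1.07). Of all tested genes 1.57% were called lower and 0.58% higher, so single calls in a list of this size describe those genes and not the list.

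Lists the study derived from retinas without *Nrl*, which lack rods and hold many cone-like cells, were set beside the falls and rises. They were made from other animals than these. Of all tested genes, 236 were rod-enriched (1.95%) and 380 cone-enriched (3.15%). Among the 190 genes called lower, 58 were rod-enriched (30.5%), 18 cone-enriched (9.47%) and 114 neither (60%). Among the 70 called higher, 2 were rod-enriched (2.86%), *Samd7* being one of them, and 22 cone-enriched (31.4%). Both lists thus held a larger share of the falls than of the tested genes, and the cone-enriched list also a larger share of the rises. The median log2 ratio was -0.50 over the rod-enriched genes tested and 0.18 over the cone-enriched genes tested.

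**Figure D3:**
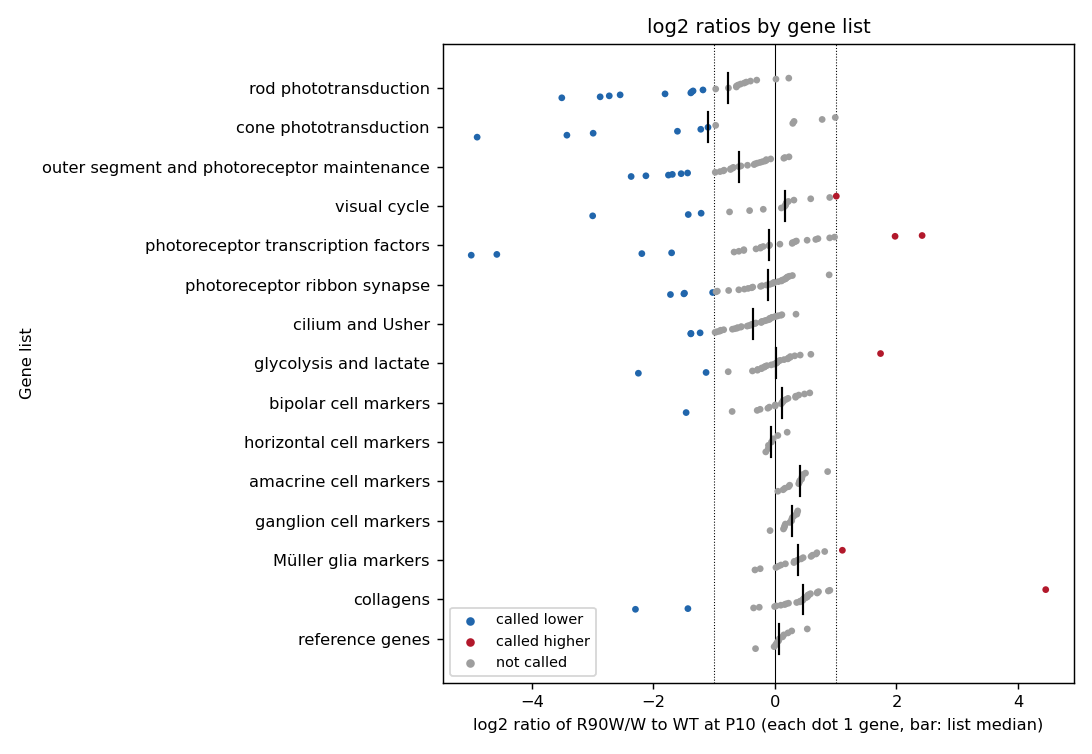
The log2 ratio of *R90W/W* to WT for each tested gene of 15 lists, 1 dot a gene, coloured by call, with the list median as a bar and dotted lines at a 2-fold difference. Outside the photoreceptor lists and the visual cycle the called dots are 3 glycolysis genes, *Cabp2*, *Aqp4* and 3 collagens, and the cone list has members on both sides of 0.

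The largest rises were of genes with varied roles, and several were under 5 CPM in WT. *Col16a1*, a collagen of the extracellular matrix, was at 5.08, 4.17 and 4.20 CPM in WT and 99.1, 94.3 and 107 CPM in *R90W/W*. It rose 21.9-fold (log2 ratio 4.46, SE 0.08, limma FDR 8.45e-18), further than any other gene tested. *Irf5*, an interferon regulatory factor, was at 3.64, 3.52 and 3.21 CPM in WT and 24.7, 24.6 and 24.3 CPM in *R90W/W* (log2 ratio 2.79, SE 0.09). The signalling ligand *Wnt9a* (2.57), the retinoic acid hydroxylase *Cyp26b1* (2.40) and the smooth muscle coactivator *Myocd* (2.35) also began under 5 CPM in WT. *Col16a1*, *Irf5*, *Wnt9a*, *Cyp26b1*, *Myocd*, *Gje1*, *Klhl33*, *Spsb1* and *A930018M24Rik* passed the 5 CPM filter through *R90W/W* alone. Their direction was therefore partly set by the filter.

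Among abundant genes the rises were as clear. *Ccdc136*, a coiled-coil gene, was at 141, 145 and 145 CPM in WT and 801, 761 and 846 CPM in *R90W/W* (log2 ratio 2.48, SE 0.04, limma FDR 2.01e-18). The clathrin light chain *Cltb* was at 154, 153 and 173 CPM in WT and 774, 714 and 722 CPM in *R90W/W* (log2 ratio 2.20, SE 0.05). *Fabp7*, a fatty acid binding protein that the study counts among its cone markers and that glial progenitors also express, was at 36.3, 42.4 and 40.2 CPM in WT and 183, 179 and 184 CPM in *R90W/W* (log2 ratio 2.20, SE 0.05). In all of these genes the lowest *R90W/W* library was over 4 times the highest WT library. The others among the 15 largest rises were *Gje1*, *Klhl33*, *Samd7*, *Spsb1*, *A930018M24Rik*, *Rxrg* and *Moxd1*, with log2 ratios of 1.76 to 2.58.

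**Figure D4:**
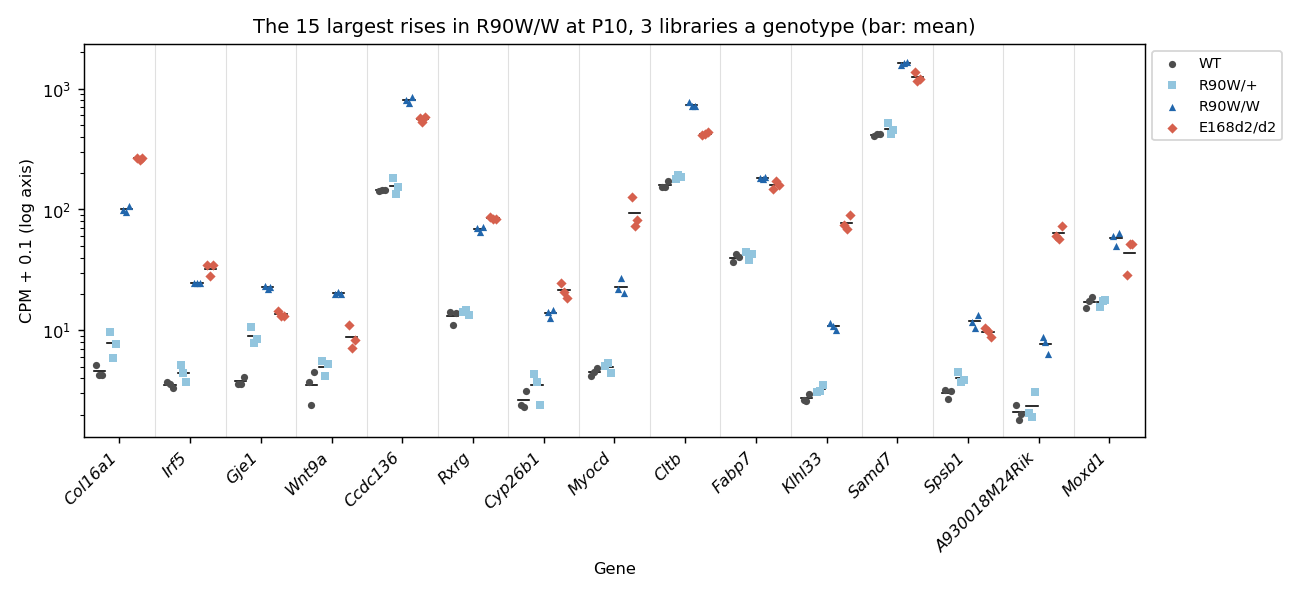
CPM + 0.1 on a log axis for the 15 genes with the largest rises in *R90W/W*, in the 3 libraries of each of 4 genotypes at P10 (bars are means). All *R90W/W* libraries lie above all WT libraries, and *E168d2/d2* lies above *R90W/W* for *Col16a1*, *Myocd*, *Klhl33* and *A930018M24Rik* and below it for *Wnt9a*, *Cltb* and *Ccdc136*.

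Of the falls outside the lists above, *AI847159*, an unnamed transcript, went from 63.9, 67.7 and 63.5 CPM in WT to 4.25, 3.46 and 3.58 CPM in *R90W/W* (log2 ratio -4.08, SE 0.08). The interleukin 9 receptor *Il9r* (-4.22), the tumour necrosis factor receptor *Tnfrsf8* (-3.81), the melanocortin receptor *Mc1r* (-3.62), *Rnf207* (-3.05), *Zan* (-2.98) and *Lrrc2* (-2.94) complete the 15 largest falls. *Il9r*, *Mc1r*, *Zan* and *Lrrc2* were under 10 CPM in WT and near 1 CPM or less in *R90W/W*. These genes and *AI847159*, *Tnfrsf8*, *Ppara*, *Opn1mw* and *Pax7* passed the 5 CPM filter through WT alone, so their direction was partly set by it. *Rnf207* shares exon sequence with *Icmt* on the other strand, a gene that was called lower too and is named after its value was seen. At the edge of the 2-fold limit, the genes just inside were *Gabrr2* (1.003), *Kank2* (1.004) and *Rabepk* (-1.007), all of which lose the call without 1 of several libraries, and those just outside were *Fabp12*, *Slco1a4* and *Sema6d* (-0.996, 0.998 and 0.997).

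Markers of horizontal, bipolar, amacrine and ganglion cells and of Müller glia were called in 2 of 70 cases (2.86%), near the 2.15% of all tested genes. No marker of horizontal cells (7 tested), amacrine cells (14) or ganglion cells (13) was called, and the list medians were -0.06, 0.41 and 0.28. By the FDR alone 32.9% of all tested genes were higher and 22.3% lower, and the marker counts that follow stand beside these shares. All 14 amacrine markers lay above 0 and 13 passed the FDR, as did 11 of the 13 ganglion cell markers, all higher. Of 19 bipolar markers, 10 were higher (52.6%) and 4 lower (21.1%) by the FDR, with a list median of 0.12. The summed level of the bipolar markers was 3523 ± 35.9 CPM in WT and 3845 ± 105 CPM in *R90W/W*. The bipolar marker called was *Cabp2*, which was lower (6.81 ± 0.13 CPM in WT, 2.42 ± 0.35 CPM in *R90W/W*). Of 17 Müller glia markers, 11 were higher and 2 lower by the FDR (list median 0.37), and the water channel *Aqp4* was called higher, at 17.1, 19.4 and 13.7 CPM in WT and 36.4, 41.9 and 30.3 CPM in *R90W/W* (log2 ratio 1.11). Its log2 ratio was 0.98 without WT replicate C and 0.999 without *R90W/W* replicate B. *Glul*, the glutamine synthetase of Müller glia, was at 472 ± 29.8 CPM in WT and 834 ± 60.1 CPM in *R90W/W* (log2 ratio 0.82). The injury marker *Gfap* was at 14.5 ± 2.0 and 14.1 ± 0.09 CPM (limma FDR 0.823), and no marker of gliosis, microglia, vessels or blood was called. Of 7 gliosis and injury genes tested, 4 were higher by the FDR and none lower.

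RNA of some markers of tissue next to the retina and of sex-linked genes differed between the genotypes. Pigment epithelium and melanocyte markers summed to 328.9 to 405.4 CPM in WT and 466.6 to 494.8 CPM in *R90W/W*. By the FDR 9 of 12 were higher (75%), beside 32.9% of all tested genes. The list median was 0.68, and 1 marker was called (*Rgr*). Among the WT libraries, replicate A held the most of this RNA, and 5 markers were called without it, against 2 without *R90W/W* replicate A or B and none without WT replicate B, WT replicate C or *R90W/W* replicate C. The defining marker *Rpe65* was at 2.47 ± 1.4 CPM in WT and 4.75 ± 1.0 CPM in *R90W/W*, too low to be tested. Lens markers summed to 36.2 to 40.8 CPM and 68.5 to 71.5 CPM, of which *Gje1*, a lens gap junction gene, was called higher (2.58), while the lens crystallin *Cryaa* stayed under 2 CPM in all 6 libraries. *Xist*, made from the inactive X chromosome of females, was at 1671 to 1810 CPM in WT and 1025 to 1393 CPM in *R90W/W*, and all 4 Y-linked genes of the list were higher in *R90W/W*. The part of these differences in the results above was not tested.

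*R90W/W* was next compared directly with *E168d2/d2*, a comparison that uses no WT library. *R90W/W* was higher in 154 genes (1.28%) and lower in 108 (0.896%) of 12056 tested, 262 in all (2.17%). Rod phototransduction RNAs were higher in *R90W/W*, where 15 of 20 genes tested were called above *E168d2/d2* and none below. Among the largest differences in this direction were those of *Cnga1* (log2 ratio of *R90W/W* to *E168d2/d2* 8.12, limma FDR 6.68e-10), *Rcvrn* (6.81), *Cngb1* (6.37), *BC016201* (6.30) and *Pde6h* (5.70), each under 4 CPM in all *E168d2/d2* libraries. *Cnga1* was at 246, 246 and 231 CPM in *R90W/W* and its *E168d2/d2* libraries averaged 0.799 CPM, far from any overlap. The rod genes that passed the 5 CPM filter through *R90W/W* alone included *Cnga1*, *Rcvrn*, *Cngb1*, *Pde6a*, *Guca1a*, *Gucy2f* and *Slc24a1*. Their direction, and with it the count of 15, was therefore partly set by the filter. *Pde6g* passed the filter in both genotypes, at 365 to 377 CPM in *R90W/W* and 16.8 to 18.2 CPM in *E168d2/d2*.

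Not all photoreceptor genes followed this order. *Gnat1* was at 55.1, 63.9 and 57.4 CPM in *R90W/W* and 46.6, 42.6 and 39.5 CPM in *E168d2/d2* (log2 ratio 0.46, limma FDR 0.00105), so the rod phototransduction gene with the largest fall in *R90W/W* was within 2-fold of its level in *E168d2/d2*. *Opn1sw* was also not called (26.6 ± 2.5 and 17.7 ± 1.8 CPM, log2 ratio 0.58), and so were *Psd2*, at 40.3 and 38.8 CPM (named after its values were seen), and *Crb1*, at 101 and 94.2 CPM. *Opn1mw* was under 1 CPM in all libraries of both genotypes and was not tested between them. *Arr3*, at 5.38 ± 0.18 CPM in *R90W/W* and 0.460 ± 0.26 CPM in *E168d2/d2*, was called higher in *R90W/W* (3.39). It too passed the filter through *R90W/W* alone.

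Of the 190 genes called lower in *R90W/W* against WT, 131 could be tested against *E168d2/d2*, and the other 59 were under 5 CPM in at least 1 library of each homozygote. Among the 131, 41 were higher in *R90W/W* than in *E168d2/d2*, 80 were not called and 10 were lower in *R90W/W* than in both WT and *E168d2/d2*. The 10 were *Myrip*, *Gm1614*, *Col17a1*, *Mob3c*, *Dnahc9*, *Gm13301*, *Gm12394*, *Lrp4*, *Dock8* and *Rabepk*, which were named after the count was seen. The filter bears on these counts: of the 10, *Mob3c*, *Dnahc9*, *Gm13301*, *Gm12394* and *Dock8* passed it through *E168d2/d2* alone, and 27 of the 41 passed it through *R90W/W* alone, so the split is partly set by it. *Lrp4*, a receptor of synapses and of WNT signalling, was the most abundant, at 562 CPM in WT, 257 CPM in *R90W/W* and 529 CPM in *E168d2/d2* (log2 ratio of *R90W/W* to *E168d2/d2* -1.03). Its *E168d2/d2* libraries varied (SD 100 CPM), and the log2 ratio was -0.94 without *E168d2/d2* replicate B, -0.96 without replicate C and -0.97 without *R90W/W* replicate B, under the limit each time. The limit was also missed by *Dnahc9* without *E168d2/d2* replicate A (-0.86), by *Dock8* without *E168d2/d2* replicate B (-0.99), and, against WT, by *Dock8* without WT replicate A (-0.999) or *R90W/W* replicate A (-0.97) and by *Rabepk* without WT replicate B (-0.99), WT replicate C (-0.98) or *R90W/W* replicate B (-0.96). With a pseudocount of 1 CPM, *Mob3c* missed the limit against *E168d2/d2* (-0.999), as did *Dock8* (-0.86) and *Rabepk* (-0.98) against WT. Of the 42-base stretches in coding transcripts of *Gm12394*, 46.6% also occur in those of other genes, so its reads may be shared. *Myrip*, a link between organelles and MYO7A, was at 52.6, 15.9 and 51.0 CPM in WT, *R90W/W* and *E168d2/d2*, and *Col17a1* at 44.9, 16.7 and 44.0 CPM. For *Lrp4*, *Myrip*, *Col17a1* and *Rabepk* the *E168d2/d2* mean was within 10% of the WT mean. The *R90W/+* libraries overlapped those of *R90W/W* for *Dock8*, *Gm13301* and *Gm12394*, and lay above them for the others of the 10. *Dock8* was at 2.86, 3.24 and 3.31 CPM in *R90W/+* and 3.14, 3.35 and 3.66 CPM in *R90W/W*.

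Of the 70 genes called higher in *R90W/W* against WT, 6 were also higher and 8 lower than in *E168d2/d2*. The 6 were *Wnt9a*, *Slc41a3*, *Lin28a*, *Srpk3*, *Egr1* and *Igfn1*, named after the count was seen. *Lin28a* and *Srpk3* passed the 5 CPM filter through *R90W/W* alone in both comparisons, so their direction was partly set by it. *Srpk3* missed the 2-fold limit against *E168d2/d2* with a pseudocount of 1 CPM (0.94). *Egr1*, an immediate early gene, was at 22.1, 20.9 and 19 CPM in WT, 65.7, 61.4 and 56.5 CPM in *R90W/W* and 22.9, 17.8 and 17.5 CPM in *E168d2/d2* (log2 ratio of *R90W/W* to *E168d2/d2* 1.66, limma FDR 7.15e-07). The 8 lower than in *E168d2/d2* included *Col16a1* (100 and 265 CPM), *Myocd* (22.9 and 93.6 CPM), *Klhl33* (10.8 and 77.4 CPM) and *A930018M24Rik* (7.58 and 63.5 CPM).

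Other genes were far lower in *R90W/W* than in *E168d2/d2*. The keratin *Krt73* was at 0.426, 0.0516 and 0.152 CPM in *R90W/W* and 290, 238 and 228 CPM in *E168d2/d2*, the largest difference in that direction (-9.85, limma FDR 1.28e-08), and it was under 1 CPM in all WT libraries. The collagen receptor *Mrc2* (-4.05), the fatty acid transporter *Slc27a2* (-3.86), the neuronal factor *Nhlh1* (-3.77), *2010001M09Rik* (-3.64) and the complement inhibitor *Serping1* (-3.60) came next. Of these genes, *Krt73*, *Mrc2*, *Slc27a2*, *Nhlh1* and *2010001M09Rik* passed the 5 CPM filter through *E168d2/d2* alone. Their direction was therefore partly set by the filter, which *Serping1* passed in both genotypes. *Serping1* was at 6.20 ± 0.71 CPM in WT and 8.13 ± 0.47 CPM in *R90W/W*, a log2 ratio of 0.39. The *E168d2/d2* pools were uneven in sex-linked RNA, with *Xist* at 1799, 3737 and 2.96 CPM and the Y-linked gene *Ddx3y* at 43.9, 0 and 78.7 CPM. By these genes replicate B read as female and replicate C as male, unlike the mixed pools that the study's methods describe. The lens crystallin *Cryaa* was at 57.6, 1.61 and 0.137 CPM in the same *E168d2/d2* pools. The part of this unevenness in the differences above was not tested.

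Against *R90W/+*, which carries a single mutant allele, *R90W/W* was lower in 95 genes (0.794%) and higher in 33 (0.276%) of 11959, 128 in all (1.07%). Of the 190 falls against WT, 154 could be tested, of which 87 were also lower than in *R90W/+* and none was higher. Of the 70 rises, 25 were also higher than in *R90W/+* and none was lower. The median log2 ratio of the 190 falls against WT was -1.43 in *R90W/W*, -0.43 in *R90W/+* and -1.87 in *E168d2/d2*, and that of the 70 rises was 1.22, 0.40 and 1.42. These comparisons share the WT libraries. The falls and rises were also chosen by the same *R90W/W* libraries. Their directions against *R90W/+*, and the *R90W/W* medians, are therefore partly set by that choice. A fall under 5 CPM in *R90W/W*, such as *Ppara* or *AI847159*, was tested against *R90W/+* only where *R90W/+* passed the filter.

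Rod phototransduction genes in *R90W/+* had levels near those of WT, with a list median log2 ratio of *R90W/+* to WT of 0.04, beside -0.05 over the rod-enriched genes. Some rod-enriched genes were far lower in *R90W/+* than in WT, among them *Zan* (-2.52), *Mc1r* (-1.85) and *Ppara* (-1.49). *Cnga1* was at 407, 422 and 447 CPM in *R90W/+* and *Cngb1* at 318, 332 and 335 CPM. *Gnat1* was at 505, 963 and 861 CPM and the cone opsin gene *Opn1mw* at 8.51, 31.2 and 28.5 CPM, with *R90W/+* replicate A the lowest for both. Without that replicate the genes that differ between *R90W/W* and *R90W/+* were 160 in place of 128. The *R90W/+* pools were uneven in lens RNA, with *Cryaa* at 1.37, 8.71 and 604 CPM in replicates A, B and C. In the same order *Xist* was at 2868, 1324 and 1563 CPM and *Ddx3y* at 20.2, 39.6 and 37.8 CPM. The part of this unevenness in the comparison with *R90W/+* was not tested. The largest differences between *R90W/W* and *R90W/+* were, lower in *R90W/W*, *Opn1mw* (-4.62), *Gnat1* (-3.67), *AI847159* (-3.54), *Ppara* (-3.51), *Tnfrsf8* (-2.98) and *Rcvrn* (-2.86) and, higher in *R90W/W*, *Col16a1* (3.71), *Irf5* (2.48), *Ccdc136* (2.37), *Rxrg* (2.30), *Myocd* (2.21) and *Fabp7* (2.13).

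In some genes *R90W/+* lay between WT and *R90W/W*. *Opn1sw* was at 212 ± 7.1 CPM in WT, 122 ± 3.6 CPM in *R90W/+* and 26.6 ± 2.5 CPM in *R90W/W*, without overlap between any pair. *Ppara* was at 18.2, 6.47 and 0.498 CPM in the same order, *Pax7* at 17.1, 3.81 and 0.622 CPM and *Mc1r* at 8.68, 2.34 and 0.621 CPM. *Gngt2* was in no such order: it was at 83.5 ± 1.8 CPM in WT, 53.1 ± 1.9 CPM in *R90W/+* and 166 ± 2.4 CPM in *R90W/W*, so that the heterozygote was lowest and *R90W/W* exceeded it more than 2-fold (log2 ratio of *R90W/W* to *R90W/+* 1.65, limma FDR 7.7e-11). *Aqp4* was at 16.7 ± 2.8, 37.1 ± 5.0 and 36.2 ± 5.8 CPM in the order WT, *R90W/+* and *R90W/W*, and *Glul* at 472 ± 29.8, 800 ± 92.8 and 834 ± 60.1 CPM. Both were above WT in *R90W/+* too, and their log2 ratios of *R90W/W* to *R90W/+* were -0.04 (SE 0.11) and 0.07 (SE 0.08).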

How the data were processed

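RNA of whole retinas was sequenced by the authors in single reads of 42 bases, aligned to mm9 with TopHat2 (2.0.5) and counted on genes with HTSeq (0.6.1p1). The study's methods describe poly(A) selection, and the labels also name a kit that depletes ribosomal RNA, so which was used for these libraries is uncertain. The authors deposited CPM per gene and library, with columns of edgeR (3.6.8) fold changes, average CPM, p-values and FDR that were not used here. Depth was estimated from the spacing of low CPM values. The libraries compared held 13.9 M to 26.2 M reads on genes (M, 1e6), so that the filter of 5 CPM stood for about 69.5 to 131 reads. CPM were not treated as counts. log2(CPM + 0.1) was fitted with limma (3.58.1, R 4.3.3; eBayes with trend, two-sided, no covariates), with Benjamini-Hochberg adjustment over all genes tested, separately for *R90W/W* against WT, *E168d2/d2* and *R90W/+*, all at P10. A gene was called at an FDR of 0.05 or less and a fold of 2 or more. A fold on this scale understates the change of genes near 0.1 CPM. On simulated data made from the *R90W/W* and WT libraries, 196 of 200 genes changed by 1.5 on the log2 scale were recovered among 12018 genes (98.0%).

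Named are the 15 largest falls and rises, up to 8 called and 4 uncalled members of each gene list, genes named by the study, the 6 largest differences each way in both direct comparisons, the 3 genes on either side of the fold limit, and the genes called in opposite directions in the homozygotes. Others are marked as named after their values were seen. The comparison, gene lists and rules were chosen with earlier results of these data known. Gene positions come from the NCBIM37 annotation, and promoter sequences from RefSeq by gene symbol. A total of 20 gene symbols that read as dates were kept in the fits where they passed the filter but are not named. Tables were handled with Python (3.11.15), numpy (2.4.6) and pandas (2.3.3), and figures were drawn with matplotlib (3.10.9). Alternatives were another pseudocount, filter, scaling or model and the omission of each library. A rod gene that belongs to these lists is counted in them but not reported here.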

Additional observations from a re-analysis of the deposited data

Results flagged for a closer look

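*Gm13301*, an annotated pseudogene on chromosome 4 (42087631 to 42104185, NCBIM37), changed in opposite directions in the homozygotes. It was at 6.39, 8.56 and 8.00 CPM in WT, 2.82, 3.46 and 2.94 CPM in *R90W/W*, and 15.8 to 16.5 CPM in *E168d2/d2*. It was called lower in *R90W/W* against WT (log2 ratio -1.28, limma FDR 4.23e-07) and higher in *E168d2/d2* against the same WT libraries (1.09), and the direct comparison of the homozygotes gave -2.37 (limma FDR 7.2e-08). Its exons overlap the annotated genes *Gm10595* and *Gm17167*, so its reads may be shared with them. It was the only gene called in opposite directions against WT in these homozygotes.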

How the results depend on the processing

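Against WT, 260 genes were called under the reported settings, 260 to 273 when each library was left out in turn, and 230 to 309 under the other alternatives. At least 246 of the 260 were called with any library left out. The calls against *E168d2/d2* (262) ranged from 240 to 293 and those against *R90W/+* (128) from 115 to 164 over all alternatives. Lower genes were 73.1% of the calls against WT, and 78.6% with libraries scaled to the median log ratio. Over 297 named gene comparisons with 15 alternatives each, none changed direction, 14 lost the call under at least 1 alternative and 8 gained it. The replicate letters are not said to mark a shared animal or batch, and deviations of WT and *R90W/W* libraries with the same letter had correlations of -0.057, 0.125 and 0.171. With the letter as a replicate block, 260, 262 and 128 genes were called against WT, *E168d2/d2* and *R90W/+*. Genes under about 5 CPM in both genotypes, such as *Rpe65* and *Cryaa*, were not tested.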

Other observations

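Collagens, clock genes and immediate early genes were examined as lists of their own. By the FDR alone 32.9% of all tested genes were higher and 22.3% lower, the shares beside which the counts here stand. Of 30 collagens tested, 22 were higher by the FDR and 4 lower, with a median log2 ratio of 0.47 beside 0.05 for all tested genes. Only 3 were called, *Col16a1* (4.46) higher and *Col5a3* (-2.29) and *Col17a1* (-1.43) lower, and 5 were called without WT replicate A. *Col5a3*, a fibrillar collagen, was at 33.7 CPM in WT and 6.82 CPM in *R90W/W*. Of 16 genes of the circadian clock, none was called, 11 were higher and 1 was lower by the FDR (median 0.41). The labels give no time of day at which tissue was taken. Of 11 immediate early genes, *Egr1* (1.56) and the phosphatase gene *Dusp1* (1.02) were called higher and *Ier3*, a stress-response gene, lower. *Ier3* was at 26.3 CPM in WT and 3.74 CPM in *R90W/W* (log2 ratio -2.78). *Dusp1* missed the 2-fold limit with a pseudocount of 1 CPM (0.95) and with median scaling (0.97). None was called among the genes tested of the cell cycle (8), cell death and the unfolded protein response (15), vessels (10), blood (5) and reference genes (11). Over all tested genes 2.15% were called, and the counts of calls in these short lists stand beside that share.

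On chromosome 6, a gene with a large fall lies next to a gene with a large rise. This neighbourhood was chosen after the values were seen. *Opn1sw* (29326671 to 29338468, NCBIM37, minus strand) had a log2 ratio of -2.99, and *Ccdc136* (29346309 to 29376955, plus strand) one of 2.48. *Irf5* (29476625 to 29491869), further along, had 2.79. The genes around them differed little: *Calu*, which overlaps *Opn1sw* on the other strand, had a log2 ratio of 0.25, *Atp6v1f* 0.29, *Kcp* -0.08 (limma FDR 0.541) and *Tnpo3*, which overlaps *Irf5*, 0.03 (limma FDR 0.571).

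WT retinas at P21 were set beside WT at P10, with no test and with the same WT libraries at P10. Of the 190 genes called lower in *R90W/W*, 40 were at least 2-fold higher in WT at P21 than at P10 (21.1%) and 28 at least 2-fold lower (14.7%). Of the 70 called higher, 25 were higher at P21 (35.7%) and 11 lower (15.7%). Among all 12077 tested genes these shares were 3.49% and 4.14%.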
